A study of Mus musculus with 8 samples.

Results

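The genes described here control proteolysis outside the cell: 5 matrix metalloproteinases (Mmp2, Mmp3, Mmp9, Mmp12 and Mmp14), 3 tissue inhibitors of metalloproteinases (Timp1, Timp2 and Timp3) and Plat, which encodes tissue plasminogen activator. They were chosen by name, as every non-control probe of the array whose annotated gene was one of these 9, which gave 15 of 41174 probes, and 9 of the 27962 gene names on the array. Of the 9 genes, 4 had more than 1 probe and 5 had 1, and unless a probe is named a gene is represented by its brightest one.

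RNA came from the ipsilateral hemisphere of male C57BL/6J mice, labelled 8 to 12 weeks old, after permanent middle cerebral artery occlusion (PMCAO) with an intraluminal filament or after a sham operation. Mice of both surgeries received 1 µL into the cerebral ventricle, holding either 1 pmol PACAP38, the long form of pituitary adenylate cyclase-activating polypeptide, or saline alone, and tissue was taken 6 h or 24 h later. This gave 8 pools, each of equal RNA from 3 mice: sham saline, sham PACAP38, PMCAO saline and PMCAO PACAP38 at both times. PACAP38 and saline pools of 1 surgery and 1 time were hybridized together on 2 two-colour arrays with the dyes exchanged, so 8 arrays make up 4 comparisons. The mice of the PMCAO pools had been kept for a neurological grade of 1 or 2 in the methods' scale, and the whole hemisphere was used, so infarct, border and unaffected tissue were mixed. The labels number the arrays of a comparison as pools 1 and 2, whereas the methods describe the same RNA labeled in both dyes. Both arrays therefore count here as 1 replicate, and each pool is 1 sample. The slides and the scanner of 6 h differ from those of 24 h, so slide, scanner and time are not separable.

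Matrix metalloproteinases are secreted or membrane-bound enzymes that cleave the extracellular matrix and the basal lamina of vessels. TIMPs bind their active sites and block them. Tissue plasminogen activator turns plasminogen into plasmin, which degrades fibrin and can activate metalloproteinase precursors. In brain ischemia this system is known chiefly for its part in opening the blood-brain barrier, and neutrophils carry stores of MMP-8 and MMP-9.

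Probes are shown for 4 genes that were lower with PACAP38 in PMCAO at 24 h: the 3 of Timp1, so that the stretches they cover can be compared, the single probes of Mmp12 and Mmp3, and the Mmp9 probe with replicate spots. The Timp1 probes listed after the brightest are adjacent in the genome. Positions are those of the mouse build mm7 in the scanner files, the spans longer than the probe cross an intron, and for Mmp3 and Mmp9 only the first 30 of 60 bases are given.
Timp1, brightest probe, chrX:19307699-19307758: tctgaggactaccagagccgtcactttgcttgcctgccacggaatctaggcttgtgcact
Timp1, the second probe, chrX:19305929-19305988: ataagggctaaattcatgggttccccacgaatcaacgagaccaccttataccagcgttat
Timp1, the third probe, chrX:19305989-19306238: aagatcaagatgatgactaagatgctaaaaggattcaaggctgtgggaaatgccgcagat
Mmp12, chr9:7352125-7352640: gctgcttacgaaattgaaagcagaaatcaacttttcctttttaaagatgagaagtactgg
Mmp3, chr9:7453874-7453933: ctttgtgaaaggaagtgctttgttcagcat
Mmp9, probe of 10 spots, chr2:164695774-164695833: ccaaccttttccagctactttagtcaatca

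One array stood apart before any result was read. It was 1 of the 2 sham arrays at 6 h, the one with saline in Cy5, where 10.7% of spots were flagged as outliers by the scanner software, and its channels correlated with those of the other arrays at 0.90 to 0.94, against 0.96 to 0.99 among the other 7 arrays. PACAP38 over saline on 1 array compares its own channels, whereas PMCAO over sham sets channels of different arrays against each other. PMCAO over sham at 6 h is therefore also given without this array for Timp1, Plat, Timp2, the member counts and the tests. Other 6 h values over sham include this array unless the spot was an outlier there. The brightest probes of Mmp14 and Timp3 were outliers there and have 1 array in that comparison. Markers of neurons (6 genes), astrocytes (4) and oligodendrocytes (4) were well above background on at least 1 array in every pool, and none of the 15 probes was saturated.

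Levels below are log2 signals relative to the 75th percentile of each channel, averaged over the dyes, and serve to compare pools for 1 gene, not genes with each other. Timp1, an inhibitor induced in injured tissue, was the member with the widest range among those measured well above background in all 8 pools. Its level was -0.57 in sham saline, 0.29 in sham PACAP38, 1.97 in PMCAO saline and 2.43 in PMCAO PACAP38 at 6 h. At 24 h it was -0.23, -0.82, 3.53 and 1.82 in the same order. The 4 PMCAO pools lay above the 4 sham pools, and the highest of all was PMCAO saline at 24 h.

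Mmp3, stromelysin 1, which cleaves matrix proteoglycans and activates other metalloproteinase precursors, was not well above background on either array in sham saline at 6 h, sham PACAP38 at 6 h and sham PACAP38 at 24 h. It was well above background on 1 of 2 arrays in sham saline at 24 h and in PMCAO saline at 6 h, and on both arrays in the other 3 PMCAO pools. Its level was -4.79 in PMCAO saline and -4.21 in PMCAO PACAP38 at 6 h, and 0.69 and -0.62 in these pools at 24 h. Mmp3 was thus read chiefly in the ischemic hemisphere of 24 h.

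Mmp9, gelatinase B, which degrades basal lamina collagen, lay between -4.61 and -4.49 in the 4 sham pools. It was at -4.22 in PMCAO saline and -4.28 in PMCAO PACAP38 at 6 h, and at -2.85 and -3.87 in these pools at 24 h. Mmp12, macrophage elastase, was well above background in 1 of 8 pools, PMCAO saline at 24 h, on both of its arrays. In the other 7 pools it was not well above background on any array.

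Plat lay between 1.29 and 1.74 in the 4 sham pools, at 2.02 in PMCAO saline and 2.08 in PMCAO PACAP38 at 6 h, and at 2.52 and 1.87 in these pools at 24 h. Mmp14, the membrane-bound metalloproteinase that activates MMP-2, was at 0.12 in sham saline, 0.01 in sham PACAP38, 0.99 in PMCAO saline and 0.41 in PMCAO PACAP38 at 24 h, and between 0.64 and 0.86 in the 4 pools of 6 h. For Timp1, Mmp3, Mmp9, Mmp12, Mmp14 and Plat the highest of the 8 pools was PMCAO saline at 24 h.

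Mmp2, gelatinase A, ranged over 0.38 log2 units and Timp3, the inhibitor bound to the matrix, over 0.61 across the 8 pools. Timp2, which also takes part in MMP-2 activation, ranged over 1.46 with all arrays and over 0.69 without the sham array of 6 h that stood apart. In that array the Cy3 and Cy5 levels of Timp2 were 7.52 and 7.62, whereas the other array of the same pools gave 5.95 and 5.68.

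**Figure D1:**
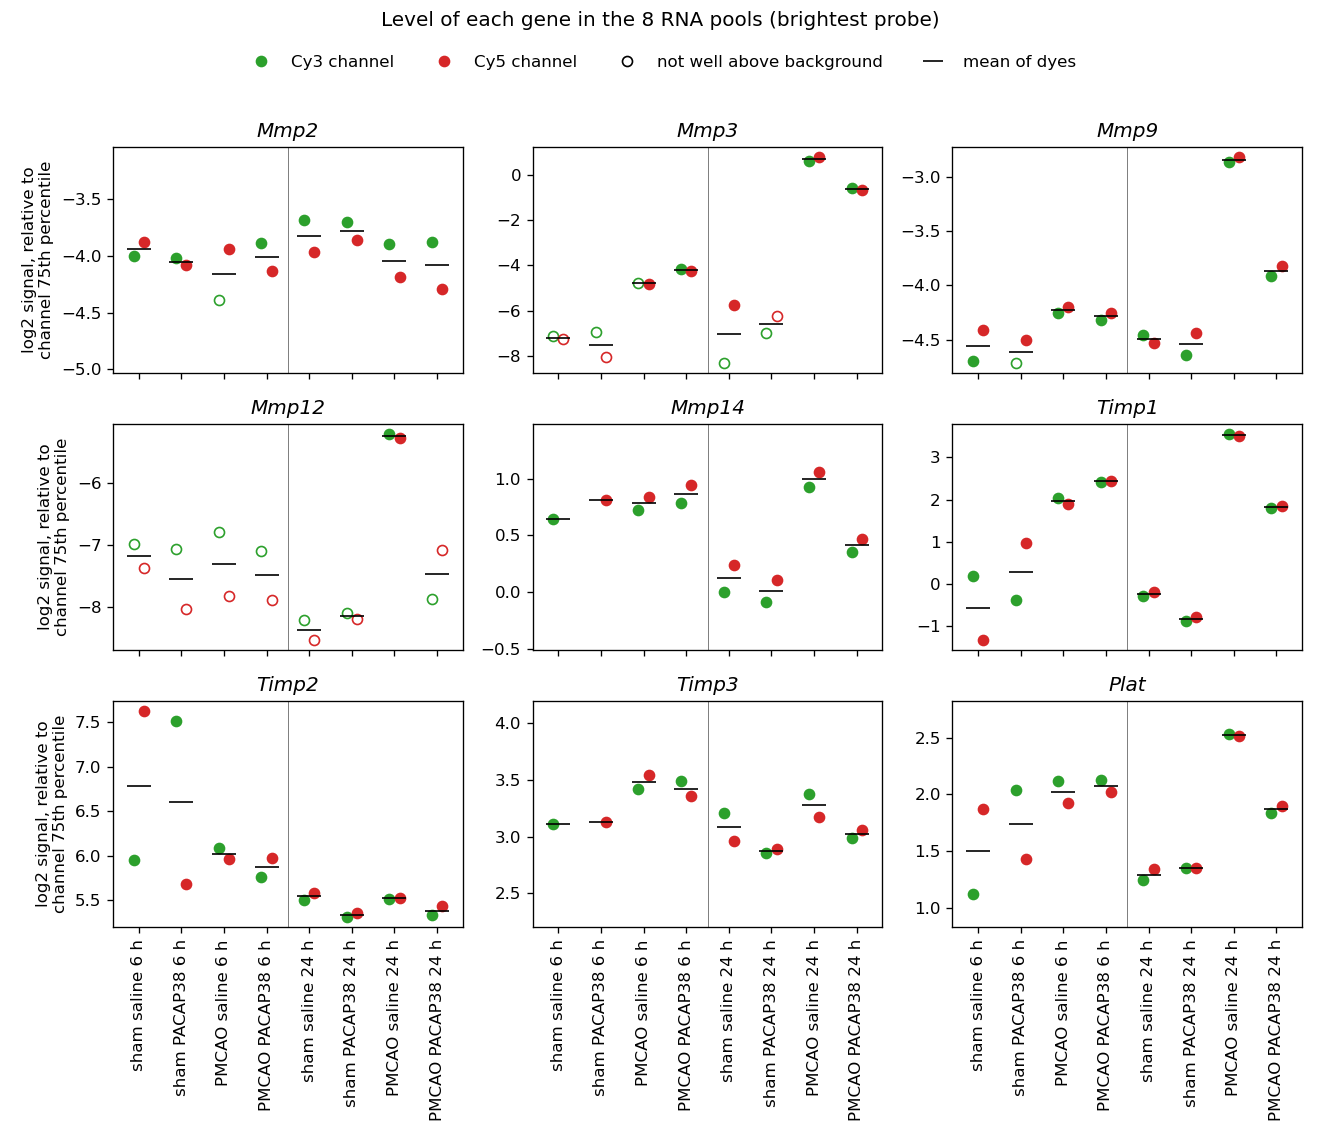
Levels of the 9 genes in the 8 RNA pools, 1 panel a gene, as log2 signal relative to the 75th percentile of the channel (each panel has its own scale). Points are single channels (Cy3 green, Cy5 red), open points are channels not well above background, and bars are the mean of the dyes; PMCAO saline at 24 h is the highest pool for Timp1 (3.53), Mmp3 (0.69), Mmp9 (-2.85), Mmp12, Mmp14 (0.99) and Plat (2.52), and the sham pools of 6 h show the gap between arrays in Timp1 and Timp2.

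The first question was what ischemia did to these genes, read as PMCAO over sham within 1 dye and 1 treatment, which gave 4 same-dye ratios at each time. At 24 h Timp1 was 13.5-fold higher in the saline pools and 6.24-fold higher in the PACAP38 pools, and its 4 ratios ran from 6.13 to 14.1. The second Timp1 probe gave 19.4-fold and 9.70-fold and the third 17.3-fold and 7.52-fold, so the 3 probes had the same direction. Mmp3 at 24 h was at least 30.1-fold higher in the PACAP38 pools, where sham was not well above background and the fold is therefore a lower bound against the lowest signal still measured on each array. In the saline pools at 24 h, where sham Mmp3 was measured on 1 of 2 arrays, the log2 ratio was 8.91 in Cy3 and 6.53 in Cy5, and the first of these rests on the sham channel that was not well above background.

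Mmp9 was 3.13-fold higher in the saline pools and 1.59-fold higher in the PACAP38 pools at 24 h, with 4 ratios from 1.53 to 3.27. Its other probe, read in sham on 1 of 2 arrays, had ratios from 1.58 to 10.4. Mmp12 was at least 1.87-fold higher in PMCAO saline than in sham saline at 24 h, and no fold can be given for its PACAP38 pools, both of which were at background. Plat was 2.35-fold and 1.43-fold higher in the saline and PACAP38 pools at 24 h, and its second probe 2.60-fold and 1.77-fold. Mmp14 was 1.83-fold and 1.32-fold higher. Mmp2 at 0.861-fold and 0.810-fold, Timp2 at 0.986-fold and 1.04-fold and Timp3 at 1.14-fold and 1.11-fold lay within the study's thresholds of 1.5-fold and 0.75-fold.

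Counted by brightest probe, 3 of 9 genes (Timp1, Mmp3 and Mmp9) had all 4 ratios above 1.5-fold at 24 h and none had all 4 below 0.75-fold. Over all probes with 4 ratios these shares were 2.23% and 1.79%. The median log2 change of the 9 genes was 0.87, against 0.02 over all probes.

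At 6 h Timp1 was 5.80-fold higher in the saline and 4.40-fold higher in the PACAP38 pools, with ratios from 2.76 to 9.26, and 3.17-fold higher without the array that stood apart. Mmp3 was at least 1.63-fold higher over both treatments, its sham pools being at background, with bounds of 1.13-fold in the saline and 2.34-fold in the PACAP38 pools, so that its place among the genes with all 4 ratios above 1.5-fold rests on sham signals near background. Plat was 1.35-fold higher with all arrays and 1.74-fold without that array. Mmp9 at 1.25-fold, Mmp14 at 1.08-fold, Timp3 at 1.20-fold and Mmp2 at 0.937-fold stayed within the thresholds, and Mmp12 was at background in every pool of 6 h. Timp2 was 0.596-fold over all arrays but 1.16-fold without that array, so its direction turned with 1 array. At 6 h, 2 of 9 genes (Timp1 and Mmp3) had all 4 ratios above 1.5-fold and none had all 4 below 0.75-fold, against 2.56% and 2.86% of all probes. With the other sham array alone, 3 of 9 had both ratios above 1.5-fold, with Plat added to Timp1 and Mmp3, against 7.12% of all probes under this looser rule. The median log2 change of all probes was -0.13 in the saline pools and -0.06 in the PACAP38 pools at 6 h.

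**Figure D2:**
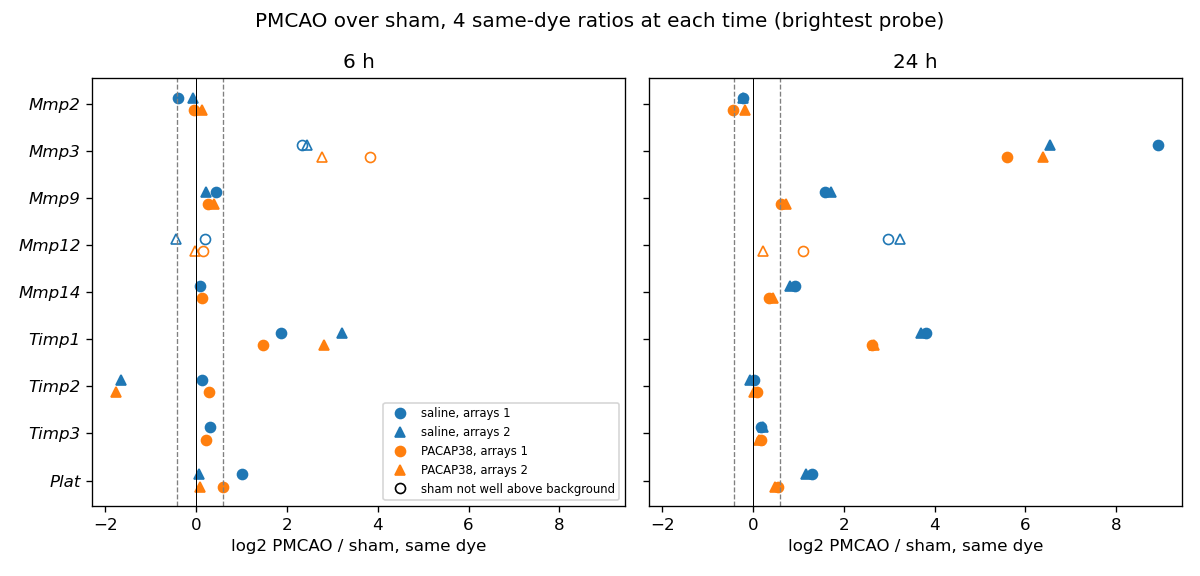
PMCAO over sham for the 9 genes as log2 ratios within 1 dye, at 6 h (left) and 24 h (right), where blue points are saline pools and orange points PACAP38 pools, circles the arrays with PACAP38 in Cy5 and triangles those with PACAP38 in Cy3 (at 6 h these include the sham array that stood apart), open points mark genes at background in all sham pools, and dashed lines are 0.75-fold and 1.5-fold. Timp1 lies far to the right at both times, with ratios from 6.13 to 14.1 at 24 h, and the triangles of Timp2 at 6 h lie to the left of its circles.

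The limma fit of the pair differences called Timp1 and Mmp3 higher at both times. For Timp1 the log2 change was 2.34 ± 0.30 (SE, 2 pairs of pools) with an adjusted p of 0.00618 at 6 h and 3.20 ± 0.30 with 0.0267 at 24 h, and it was higher in both pairs at both times. For Mmp3 the adjusted p was 0.0113 at 6 h and 0.0167 at 24 h, and 0.0212 for the difference between the times. The fit called 42.5% of all probes at 6 h, 2.1% at 24 h and 25.1% for the difference between the times. The pairs of 1 time share their arrays once dyes are averaged, so these p-values are too small. Within Cy3 alone or Cy5 alone, where the pairs lie on different arrays, limma called 0 of 36121 probes for each of these contrasts, although between 1025 and 6634 had an unadjusted p under 0.05. Without the array that stood apart and its partner arrays, the adjusted p of Timp1 was 0.122 at 6 h and 0.0627 at 24 h, and that of Mmp3 0.172 and 0.0845. Timp2 was called lower at 6 h with an adjusted p of 0.0073 and not without that array, where its log2 change was 0.22. Mmp9 (adjusted p = 0.107), Plat (0.115), Mmp14 (0.119) and Mmp12 (0.182) were not called at 24 h. The 2 pairs of a time were the saline and the PACAP38 pair, with no term for treatment. A difference between these pairs, as given above for Mmp9, Plat and Mmp14 at 24 h, therefore entered the spread of the fit, which both times share.

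The second question was what PACAP38 did, read within arrays as PACAP38 over saline. In PMCAO at 24 h, 6 of 9 genes were below 0.75-fold on both arrays and none was above 1.5-fold. Over all probes with both arrays, 3.75% were below 0.75-fold on both, and 8.18% were below 0.75-fold and 2.99% above 1.5-fold by their mean, and the median log2 ratio of the 9 genes was -0.64 against 0 over all probes. Since no other pools of mice repeat this comparison, it has no test, and the values are those of 1 pair of pools measured on 2 arrays.

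Timp1 had log2 ratios of -1.70 (PACAP38 in Cy5) and -1.69 (dyes exchanged), a mean of 0.309-fold. The other 2 Timp1 probes gave 0.396-fold and 0.317-fold. Mmp3 was at 0.409-fold, with log2 ratios of -1.24 and -1.34. Both genes thus differed between the pools by far more than between the dyes.

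Mmp9 was at 0.497-fold by its probe of 10 spots, whose log2 ratio was -0.95 ± 0.11 (SD, n = 9 spots) on 1 array and -1.07 ± 0.07 (SD, n = 10 spots) on the other. Its second probe gave 0.327-fold. Mmp12 was well above background in the saline pool and on neither array in the PACAP38 pool, which puts the saline pool at least 1.69-fold higher. Plat was at 0.642-fold (log2 -0.63 and -0.65), and its other probes at 0.710-fold and 0.817-fold. Mmp14 was at 0.675-fold, and its dimmer probe split with the dye, at log2 -0.91 and 0.01.

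Timp2 at 0.917-fold, Timp3 at 0.849-fold and Mmp2 at 0.980-fold were within the thresholds. The log2 ratio of Mmp2 was -0.38 on 1 array and 0.32 on the other, so its sign followed the dye.

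At 6 h in PMCAO no member passed a threshold by the mean of both arrays. Mmp3 came closest at 1.49-fold, with log2 ratios of 0.53 and 0.63, although its saline pool was well above background on 1 of 2 arrays. Timp1 was at 1.37-fold with 0.38 and 0.54. The remaining members with a signal lay between 0.893-fold (Timp2) and a log2 ratio of 0.14 (Mmp2). In this comparison 5.41% of all probes were above 1.5-fold and 6.9% below 0.75-fold.

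In the sham hemispheres Timp1 was the member that passed. At 6 h it was at 1.82-fold, with log2 ratios of 0.79 and 0.94, and its other probes gave 1.39-fold and 1.92-fold. At 24 h it was at 0.662-fold, with -0.52 and -0.67, and its other probes gave 0.783-fold and 0.722-fold. Over all probes 3.98% were above 1.5-fold and 7.48% below 0.75-fold in sham at 6 h, and 1.75% and 3.87% in sham at 24 h. The other members were within the thresholds by their brightest probe, among them Mmp3 at 24 h, whose arrays gave 2.06 and -1.22 near background and so no direction. Mmp3 at 6 h and Mmp12 at both times were at background in both sham pools, where the software lists a ratio of 0.

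Timp1 was therefore higher with PACAP38 on all 4 arrays of 6 h and lower on all 4 arrays of 24 h, by each of its 3 probes. Averaged over the 4 comparisons, limma called 0 of 40668 probes for PACAP38 over saline, with 2037 at an unadjusted p under 0.05. The change of PACAP38 over saline from 6 h to 24 h was also tested, and limma called 0 of 40668 probes, with 2064 at an unadjusted p under 0.05. For Timp1 this change was -1.80 ± 0.50 (SE, 2 comparisons a time) with an adjusted p of 0.886. The smallest adjusted p of any probe in this fit, with 2 comparisons a time, was also 0.886, so the fit singled out no gene.

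**Figure D3:**
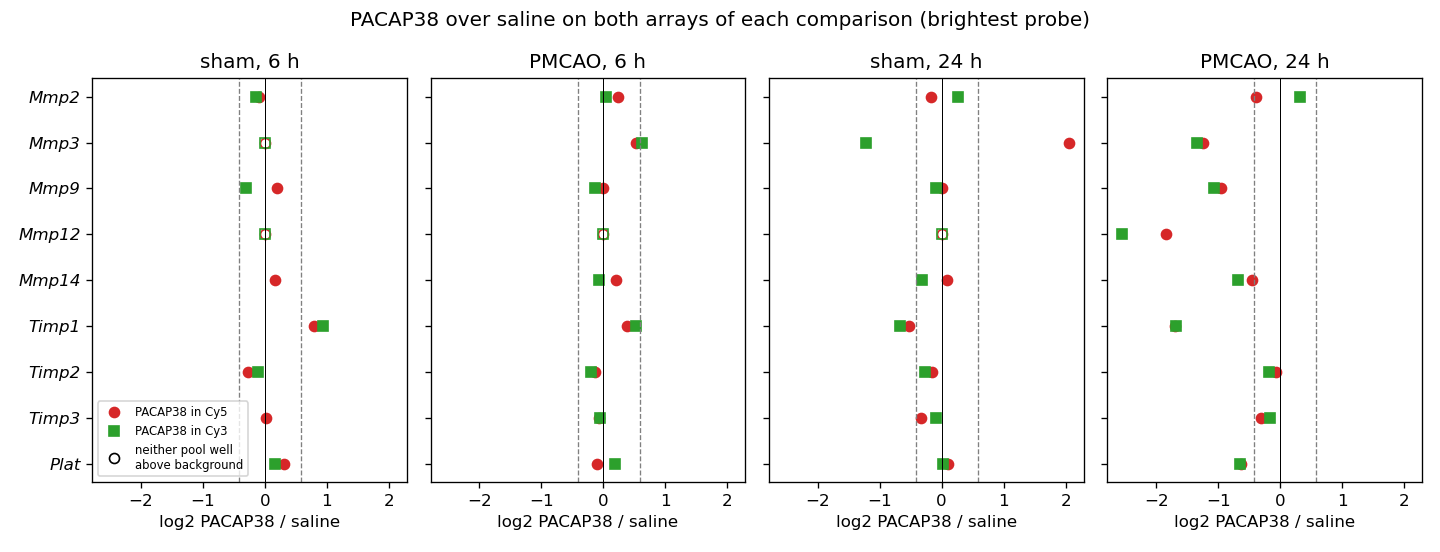
PACAP38 over saline for the 9 genes as log2 ratios, 1 panel a comparison. Red circles are the arrays with PACAP38 in Cy5 and green squares those with PACAP38 in Cy3, open points mark genes at background in both pools, and dashed lines are 0.75-fold and 1.5-fold; in PMCAO at 24 h both arrays put Timp1 (0.309-fold), Mmp3 (0.409-fold), Mmp9 (0.497-fold), Mmp12, Mmp14 (0.675-fold) and Plat (0.642-fold) below the lower line.

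The PMCAO saline pool of 24 h enters both contrasts, as the denominator of PACAP38 over saline and the numerator of PMCAO over sham, so the low ratio with PACAP38 and the high ratio with ischemia share that pool. Given side by side at 24 h, PMCAO PACAP38 over sham PACAP38, which does not use it, was 6.24-fold for Timp1, 1.59-fold for Mmp9, 1.43-fold for Plat and 1.32-fold for Mmp14. These lay below the values of the saline pools for each of the 4 genes. The values of the saline pools do use the shared pool, so this order largely restates the PACAP38 ratios and is no separate support.

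Markers of cell types were read beside these values. Of 8 neutrophil markers, 6 were below 0.75-fold with PACAP38 on both arrays in PMCAO at 24 h, with a median log2 ratio of -1.82, against 3.75% of all probes, and 1 of the 6, Camp, was at background in both pools. Their summed level (linear signal relative to the 75th percentile) was 49.9 in PMCAO saline and 5.96 in PMCAO PACAP38 at 24 h. In sham at 24 h it was 0.782 with saline and 1.16 with PACAP38. At 6 h it was 9.10 in PMCAO saline and 13.7 in PMCAO PACAP38, and 2.59 in sham saline and 3.05 in sham PACAP38. With PACAP38 it was thus higher at 6 h and lower at 24 h in PMCAO, as Timp1 and Mmp3 were. In sham this sum was higher with PACAP38 at both times, but the 8 markers did not share a direction there. For sham at 6 h none passed 1.5-fold by the mean, and 2 fell below 0.75-fold. These were Ltf, on both arrays, and Cxcr2, at background in both pools. For sham at 24 h S100a8 and S100a9 passed 1.5-fold by the mean. Ltf and Ngp fell below 0.75-fold there, Ngp being at background in both pools. Timp1 was lower with PACAP38 in sham at 24 h. S100a8 in PMCAO went from 1.70-fold at 6 h to 0.133-fold at 24 h. It was the 1 marker of 8 above 1.5-fold on both arrays in PMCAO at 6 h, where 2 were above by the mean and 1 below 0.75-fold. The other 1 above, Camp, and the 1 below, Ngp, were at background in both pools. There S100a9 was at 1.48-fold and Mpo at 0.874-fold. Of the defining granule markers, Camp and Elane were at background in all pools, Ngp was well above background in PMCAO saline at 24 h and in no other pool, and Ltf was at background in both PACAP38 pools of 24 h. Mpo, which was well above background on at least 1 array in every pool, was at 0.853-fold with PACAP38 in PMCAO at 24 h and 1.23-fold over sham at 24 h. Microglia and macrophage markers summed to 8.42 in PMCAO saline and 7.73 in PMCAO PACAP38 at 24 h, with 2 of 8 below 0.75-fold on both arrays. Endothelial markers summed to 27.5 and 19.4, with 2 of 6 below on both arrays and 4 by the mean, and mural and meningeal markers to 22.8 and 15.7, with 2 of 6 on both. Oligodendrocyte markers summed to 165 and 123 and choroid plexus markers to 9.21 and 7.25, each with 1 gene below by the mean (Mbp at 0.716-fold and Ttr at 0.741-fold) and none on both arrays. Neuronal markers summed to 137 and 142, and no neuronal or astrocyte marker was past a threshold. The part of these cells in the values of the metalloproteinases and Timp1 was not tested, and fewer cells of a type and less RNA per cell cannot be told apart in pooled tissue.

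The rest of the system was read from fixed lists, by the brightest probe of each gene. Of 16 other metalloproteinases, 3 were below 0.75-fold on both arrays with PACAP38 in PMCAO at 24 h, against 3.75% of all probes. Mmp8, the neutrophil collagenase, was at 0.0958-fold, with log2 ratios of -3.49 and -3.27. Mmp13, collagenase 3, was at background with PACAP38 and at least 1.84-fold higher with saline, and Mmp19 was also among them. At 6 h in PMCAO Mmp8 was higher with PACAP38, at 1.90-fold. It was at background in all sham pools, and PMCAO was at least 2.76-fold higher in the saline and 7.37-fold higher in the PACAP38 pools at 6 h, and at least 22.7-fold and 1.82-fold higher at 24 h. The list's median log2 ratio at 24 h in PMCAO was -0.03, so most of it lay near 1-fold, and 6 of its 16 genes were at background in both pools.

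Of 9 genes of the plasminogen system, 3 were below 0.75-fold in PMCAO at 24 h by the mean, 2 of them on both arrays (Plaur and Anxa2), and 2 were above 1.5-fold, Serpinb2, at background in the saline pool and at least 1.46-fold higher with PACAP38, and Plg, at background in both pools. Over all probes 8.18% were below by the mean, 3.75% below on both arrays and 2.99% above by the mean. Plaur, the urokinase receptor, was at 0.298-fold, with log2 ratios of -1.70 and -1.79, and Anxa2, annexin A2, which binds plasminogen at the cell surface, at 0.469-fold. Against sham, Plaur was 15.5-fold higher in the saline and 6.37-fold higher in the PACAP38 pools at 24 h, and 5.29-fold and 3.44-fold higher at 6 h. Serpinf2, which encodes the plasmin inhibitor alpha 2-antiplasmin, was 4.09-fold and 3.91-fold higher than sham in these pools at 24 h and at 0.974-fold with PACAP38. All 4 ratios over sham at 24 h were above 1.5-fold for 3 of the 9 genes (Plaur, Serpinf2 and Anxa2), against 2.23% of all probes.

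Of 6 inhibitors and partners, 2 were below 0.75-fold on both arrays with PACAP38 in PMCAO at 24 h, against 3.75% of all probes. Thbs1, thrombospondin 1, which binds latent TGF-beta and metalloproteinases, was at 0.195-fold, and at 1.83-fold in PMCAO at 6 h. Lcn2, the lipocalin that forms a complex with MMP-9, was at 0.485-fold in PMCAO and at 2.03-fold in sham at 24 h, and stood 40.4-fold higher in PMCAO than in sham in the saline and 9.54-fold higher in the PACAP38 pools at 24 h, and 4.56-fold and 2.87-fold higher at 6 h. Of 6 ADAM and ADAMTS proteases, 3 were below 0.75-fold on both arrays with PACAP38 in PMCAO at 24 h, against the same 3.75% of all probes. None passed a threshold in the other 3 comparisons. Adamts9 was at 0.350-fold in PMCAO at 24 h, and 3.83-fold and 3.62-fold higher in PMCAO than in sham in the saline and PACAP38 pools at 6 h. In sham at 24 h Mmp28 was at 0.710-fold with PACAP38.

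In the limma fit of PMCAO over sham, with the limits given above, 5 of the 16 other metalloproteinases were called higher (Mmp8, Mmp10, Mmp19, Mmp21 and Mmp23) and 3 lower (Mmp11, Mmp15 and Mmp16) at 6 h, and none at 24 h. Calls were made for 42.5% of all probes at 6 h, so 8 of 16 is near the background, and Mmp21 was at background in all pools of 6 h. Of the plasminogen system 3 were called higher (Plaur, Serpine2 and S100a10) and 1 lower (Serpini1) at 6 h, and 2 higher at 24 h. These 2 were Plaur (adjusted p = 0.0331) and Serpinf2 (0.0196). Mmp8 had an adjusted p of 0.0159 at 6 h and 0.0545 at 24 h. Without the array that stood apart and its partner arrays none of these calls was made, the lowest adjusted p being 0.0518, for Serpinf2 at 24 h. The genes called at 6 h were listed after their values were seen.

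**Figure D4:**
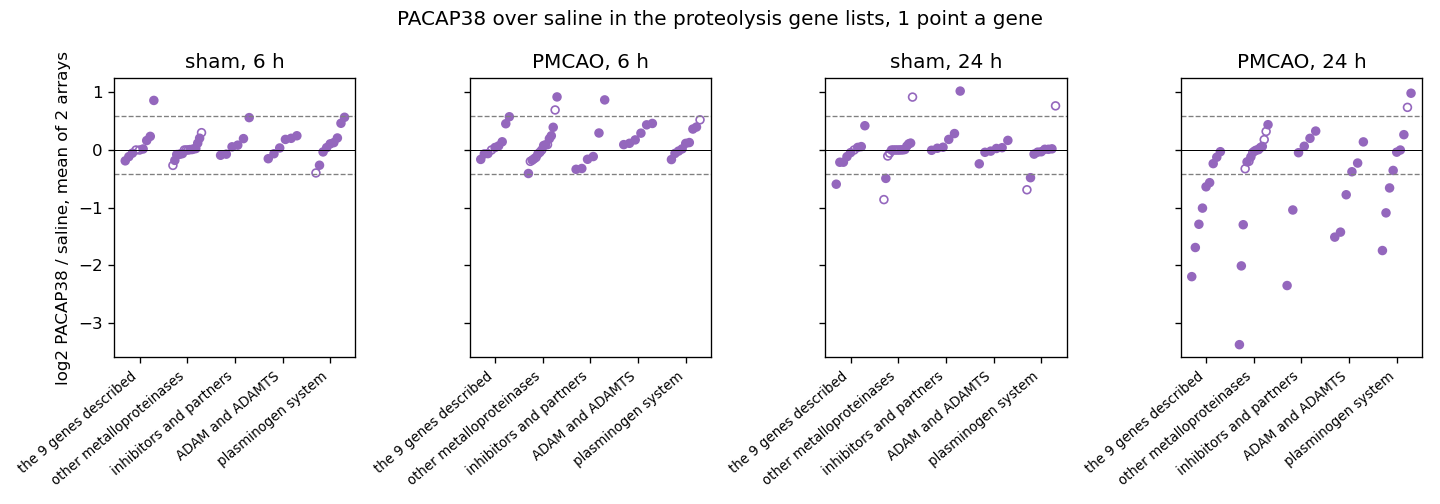
PACAP38 over saline as the mean log2 ratio of both arrays, 1 point a gene, for the 9 genes and the 4 other lists, 1 panel a comparison. Open points are genes at background in both pools and dashed lines are 0.75-fold and 1.5-fold. PMCAO at 24 h holds the lowest values, among them Mmp8 at -3.38 (other metalloproteinases), Thbs1 at -2.36 (inhibitors and partners) and Plaur at -1.75 (plasminogen system).

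Genes whose levels followed a member over the 8 pools are given as a description, since the pools share arrays and the highest of 16890 probes was taken. For Timp1 they were 6430548M08Rik (Pearson r = 0.997) and Tubb6 (0.991), and for Plat Col4a1 (0.994) and S100a9 (0.991). For Mmp9 they were Arpc1b (0.978) and Smg6 (0.974). None is given for Mmp12, at background in 7 of 8 pools, for Mmp3, at background in 3 and measured on 1 array in 2 more, or for Timp2, whose range rested on 1 array.

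Promoter sequence from RefSeq on GRCm38.p6 (250 bases before to 50 after the start) was at hand for 6 of the 9 genes. It was searched on both strands for TGACTCA, the binding motif of AP-1, a factor long known at metalloproteinase promoters. The motif was found for Mmp3, beginning 46 bases before the start, and at the second of 2 Mmp12 starts, beginning 44 bases before it. It was not found for Mmp14, Timp1, Timp2 or Timp3. Of all 32851 promoters 5.2% held it. Of the other listed genes it was found for 4 of 13 metalloproteinases with a promoter (Mmp1a, Mmp7, Mmp10 and Mmp13) and for 2 of 6 genes of the plasminogen system (Plaur and Anxa2). Other motifs searched, TGACGTCA for CREB and TTCCNGGAA for STAT factors, were in 1.79% and 1.15% of all promoters and in none of the 6 members. The 80 bases before each start are shown for the pair with the motif and for Timp1, where it was not found, with the motif in capitals.
Mmp3, chr9:7445742-7445821, plus strand: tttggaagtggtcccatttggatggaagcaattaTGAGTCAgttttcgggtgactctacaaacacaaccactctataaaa
Mmp12, second start, chr9:7347294-7347373, plus strand: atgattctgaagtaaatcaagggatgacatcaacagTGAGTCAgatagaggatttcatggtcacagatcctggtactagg
Timp1, chrX:20870086-20870165, plus strand: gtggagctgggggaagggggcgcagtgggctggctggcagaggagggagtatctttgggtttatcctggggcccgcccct
A match describes the letters of these windows and says nothing of what binds there.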

How the data were processed

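Per the labels and methods, RNA of 3 mice a pool (300 ng each, 900 ng a labeling) was hybridized to two-colour Agilent whole mouse genome arrays. The authors extracted spots with Feature Extraction, whose version in the deposited files is 9.5.1.1 for 6 h but 9.5.3.1 for 24 h, and which annotate probes on mm7. The deposited files hold processed intensity per dye (background-subtracted, dye-normalized), the log10 ratio of Cy5 over Cy3, and flags used as a score for outliers and for being well above background. The deposited value table holds the linear ratio of Cy5 over Cy3, with a minus sign put on arrays with PACAP38 in Cy3, and was used as an alternative. Its second copies of 3 files were identical and left out.

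PACAP38 over saline was the log10 ratio turned to log2, with its sign turned where PACAP38 was in Cy3, averaged over outlier-free spots and then over both arrays. PMCAO over sham compared log2 processed signals of the same dye, scaled to the 75th percentile of each channel. Lower bounds took, per array, the higher of the dim probe's signal and the lowest signal called well above background, on values normalized by loess and Aquantile. Thresholds were 1.5-fold and 0.75-fold, as in the study. Tests used limma (lmFit, eBayes, Benjamini-Hochberg at 0.05) on the 4 comparisons or the 4 pair differences, and were run on simulated data. The simulated pairs had independent noise, whereas the real pairs of a time share arrays, so this run cannot show whether p-values are too small. The number of arrays and of pools limits the precision. The p-values measure the spread between comparisons, or between the saline and PACAP38 pairs of a time, with 1 spread estimated over both times. Calls at 24 h thus rest on the 6 h pairs as well, and without either 6 h pair 0 probes were called at 24 h. The p-values do not measure a spread between replicate pools, since each surgery, treatment and time had 1 pool. The members and lists were chosen with earlier results of these data known. Named genes were the members, Mmp8, and up to 3 other listed genes a time or comparison with the largest change that passed. Alternatives covered background correction, scaling, dyes, arrays, filters, outlier spots and probes of a gene. The rule on all 4 same-dye ratios, the test of PACAP38 between times and the fits by array set were added after the data were seen. Gene lists were matched by name or RefSeq accession, with 14 of the 15 member probes matched by accession. 1 gene of the plasminogen list is not reported here. Analyses used R 4.3.3, limma 3.58.1 and Python 3.11.15.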

Additional observations from a re-analysis of the deposited data

Results flagged for a closer look

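Timp1 was higher with PACAP38 at 6 h and lower at 24 h on both arrays of each time. The log2 ratio of PACAP38 over saline differed between 24 h and 6 h by -2.15 in PMCAO and by -1.46 in sham. Mmp3 turned in the same way in PMCAO, by -1.87, with its saline pool of 6 h well above background on 1 of 2 arrays. The summed neutrophil markers in PMCAO were also higher with PACAP38 at 6 h and lower at 24 h. In sham their sum was higher at both times, although the median log2 ratio of the 8 markers was -0.002 at 6 h and -0.014 at 24 h. Their part in these values was not tested. The differences between times within a surgery were not tested. With both surgeries together limma gave Timp1 an adjusted p of 0.886, and no probe had a smaller one.

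Mmp3 was also singled out because limma called its PMCAO over sham ratio larger at 24 h than at 6 h, by 4.01 on the log2 scale. This fitted value rests on sham signals near background. Its adjusted p was 0.617 in Cy3 alone and 0.897 in Cy5 alone. No probe had a smaller adjusted p in these single-dye fits, which therefore singled out none. Timp2 was singled out with a difference of 0.76, which became -0.16 without the sham array of 6 h that stood apart. The 6 h and 24 h arrays lay on different slides and were read on different scanners, so these cannot be told apart from time in any of these values. Median raw Cy3 signals were 62.0 to 70.1 on the 6 h arrays and 131 to 146 on the 24 h arrays.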

How the results depend on the processing

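The number of array pairs and pools limits every value, and signals near background limit Mmp3 in sham, Mmp12 and the second Mmp9 probe. In PMCAO at 24 h, 5 of 9 members were past the threshold with normexp and loess and 6 under every other setting tried. Leaving out 1 array gave 0 to 1 in PMCAO at 6 h (main 0), 2 with either array in sham at 24 h (main 1), 1 with either in sham at 6 h and 6 with either in PMCAO at 24 h. For the pairs of pools at 6 h, keeping outlier spots gave 5 members past the threshold in place of 3 in both pairs, and for the PACAP38 pair at 24 h normexp, loess and Aquantile together gave 2 in place of 4, and Aquantile alone 3. Arrays with PACAP38 in Cy5 or Cy3 alone gave 3 to 4, 3 to 3, 6 to 6 and 3 to 5 members for the saline and PACAP38 pairs at 6 h and the same pairs at 24 h. With the saline pair alone 6 members had same-dye ratios above 1.5-fold at 24 h in place of 3, with the PACAP38 pair alone 3, and with 1 array set alone 3 to 4. At 6 h the pairs alone gave 2 and the array sets alone 3.

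For PMCAO over sham by limma, probes called were 17210 at 6 h, 851 at 24 h and 10159 for their difference. Cy3 alone and Cy5 alone gave 0 for each, with 6634 and 2674, 1470 and 1048, and 2622 and 1025 at an unadjusted p under 0.05. Gene means of all probes gave 11056 at 6 h and 6100 for the difference. At 24 h normexp, loess and Aquantile together gave 2585, 8 pools with treatment as a term 1302 and without it 2069, and an intensity trend 1856. Without 1 array set the counts were 103 to 22090 at 6 h, 279 to 451 at 24 h and 119 to 17355 for the difference. Leaving out 1 pair of pools gave 11518 to 16087, 0 to 1437 and 4433 to 10570. Timp2 at 6 h turned from lower to higher without the sham array that stood apart, to 0.14 in the saline pair (the same value as Cy3 alone), 0.29 in the PACAP38 pair (the same as Cy5 alone) and 0.22 in the fit, and its difference between the times to -0.16. No setting tried called a probe for PACAP38 over saline. No paired analysis was possible because the replicate number marks the dye orientation of the same RNA, which was averaged to 1 replicate.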
